A study of Mus musculus with 4 samples.

Results

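The metabotropic glutamate receptor genes Grm2, Grm3, Grm4, Grm5, Grm7 and Grm8 were examined in the hippocampus of Lsd1 KI mice and their WT littermates. These 6 genes were chosen by their symbols, matched to Ensembl gene IDs, and all 6 were found among the 26328 genes listed in at least 1 sample. The KI mice carry LSD1, a histone demethylase encoded by Kdm1a, with an alanine in place of the serine that PKCα phosphorylates, and both genotypes are of C57BL/6 background. All samples are from males, with 2 hippocampal samples per genotype. Per the labels, males of 8 to 15 weeks served for the behavioural tests, and no separate age is given for the RNA samples. The substitution is present in every cell of the animal, so neurons, glia and vessels of the dissected tissue carry it alike. The comparison asks whether loss of this phosphorylation site goes with a different level of the receptors. The 2 samples of a genotype are not said to come from 1 mouse each, so p-values measure only the spread between these samples.

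Metabotropic glutamate receptors are G protein-coupled receptors that respond to glutamate more slowly than the ion channel receptors do. Group I receptors couple to Gq and phospholipase C, sit largely at the edge of the postsynaptic density, and drive a form of long-term depression in CA1. Group II and group III receptors couple to Gi/o, lower cyclic AMP and, at presynaptic terminals, reduce transmitter release. Among the 6 genes, Grm5 belongs to group I, Grm2 and Grm3 to group II, and Grm4, Grm7 and Grm8 to group III.

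Expression was deposited as RPKM, reads scaled to the exon length of the gene and to the mapped reads of the sample, so that levels can be compared between genes. The depth worked out from the whole-read steps of the values was about 8830000 mapped reads in WT replicate 2 and between about 13410000 and 14950000 in the other samples. Kdm1a itself stood between 10.97 and 11.63 RPKM in the 4 samples, a check of its level that does not show the substitution. The dissected tissue carried the markers of its regions, with summed RPKM of at least 47.3 for 4 dentate granule cell genes, 79.4 for 3 CA1 genes and 52.01 for 3 CA3 genes in every sample. Of the 3 cerebellar granule cell markers, Gabra6 was not listed in any sample and the other two summed to at most 0.192 RPKM.

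Promoter sequence was examined first, because LSD1 acts at promoters and its partners include the repressor REST, which binds a bipartite element named RE1. RefSeq windows (GRCm38.p6) of the 250 bases before a transcription start were given for Grm2, Grm3, Grm7 and Grm8. Grm4 and Grm5 had no entry. The left and right blocks of RE1, TTCAGCACC and GGACAG, were searched in this order on both strands with up to 12 bases between them, a search chosen after the Grm2 sequence had been read. The window of Grm2 held both blocks with 7 bases between them, the left block starting 242 bases before the transcription start. The gap of this pair was not compared with that of a standard RE1. Of all 32851 windows of this length, 6 held such a pair (0.0183%), and 99 held the left block with or without the right one (0.301%). Because the search was set with the Grm2 sequence known, these shares do not test its match. The windows of Grm2 and its group II partner Grm3 are shown for this contrast, each on its gene's strand, with the blocks in capitals.

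Grm2 (chr9:106656110-106656359, minus strand): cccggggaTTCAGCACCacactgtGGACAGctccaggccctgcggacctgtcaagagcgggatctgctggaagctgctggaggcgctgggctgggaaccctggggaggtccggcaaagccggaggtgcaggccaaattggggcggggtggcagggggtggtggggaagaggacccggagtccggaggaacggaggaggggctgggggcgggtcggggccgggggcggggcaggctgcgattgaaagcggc
Grm3 (chr5:9725353-9725602, minus strand): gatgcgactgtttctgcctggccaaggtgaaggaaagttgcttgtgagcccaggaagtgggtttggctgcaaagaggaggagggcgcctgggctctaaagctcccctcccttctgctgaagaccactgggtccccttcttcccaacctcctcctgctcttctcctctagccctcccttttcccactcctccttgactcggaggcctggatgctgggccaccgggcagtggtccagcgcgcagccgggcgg

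The pair of blocks was not found in the windows of Grm3, Grm7 or Grm8. The E-box CACGTG, the element of CLOCK:BMAL1, was in none of the 7 windows of these 4 genes and in 6.02% of all windows. The Grm2 window was 71.2% G and C with 16 CpG dinucleotides, against 62.4% and 8 in Grm3 and a median of 52.4% and 6 over all windows. The GC box GGGCGG, counted on both strands, occurred 3 times in Grm2 and 1 time in Grm3, and 32.7% of all windows held at least 1. These matches are descriptions of letters and no occupancy was measured.

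The receptors fell into a steep order of levels that was alike in both genotypes. Grm5 was the most abundant, with a mean of 32.2 RPKM over the 4 samples, followed by Grm2 with 19.3, Grm3 with 10.3, Grm7 with 9.99, Grm4 with 3.27 and Grm8 with 1.13 RPKM. The ranges over the 4 samples of neighbours in this order did not overlap in 4 of 5 cases. The exception was Grm3 and Grm7, whose means differed 1.03-fold and whose ranges crossed. From Grm5 to Grm2 the step was 1.66-fold, from Grm2 to Grm3 1.88-fold, from Grm7 to Grm4 3.05-fold and from Grm4 to Grm8 2.90-fold.

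**Figure D1:**
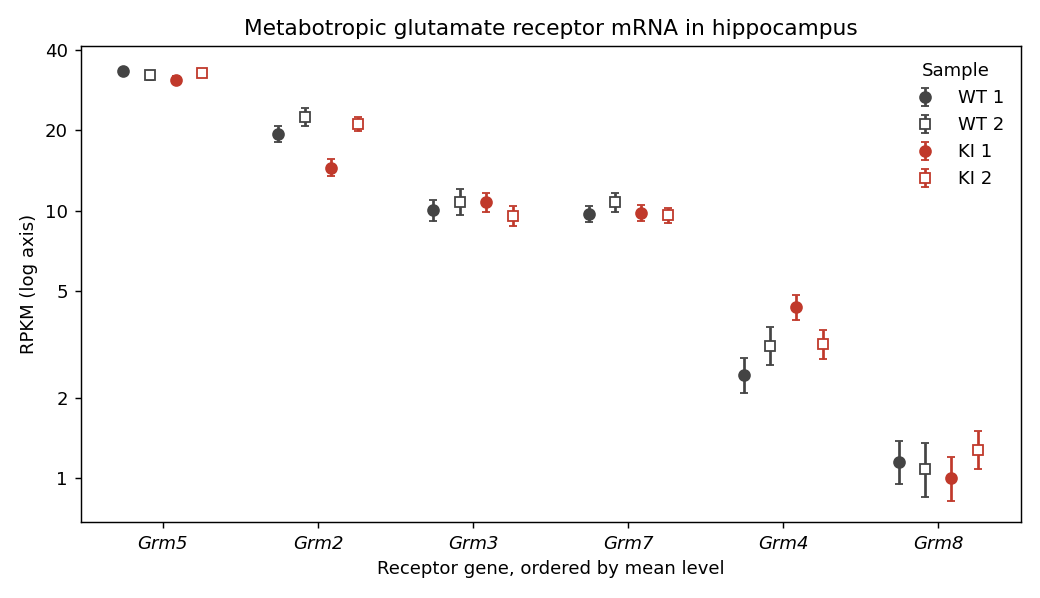
Level in RPKM on a log axis of each of the 6 receptor genes in WT (grey) and KI (red) samples, replicate 1 filled and replicate 2 open; bars are exact 95% Poisson intervals of the reads behind each value and cover counting error only. Grm5 lies at 30.8 to 33.2 RPKM and Grm8 at 1.00 to 1.28 RPKM, and Grm2 and Grm4 spread most between samples.

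In the comparison of KI with WT, 0 of the 6 receptor genes met the call rule, a limma adjusted p under 0.1 on log2(RPKM + 1) together with a 1.2-fold or larger change (Benjamini-Hochberg over 18436 genes). Over all genes tested the share called was also 0.0%, and the smallest adjusted p from limma was 0.197. Without adjustment, 0 of the 6 had a limma p under 0.05, which 9.62% of all genes tested had. With 2 samples per group, no exact permutation test can give a p under 0.333. The groups were separate in 1 of the 6 genes, Grm4, with the KI samples on the higher side. Over all genes tested they were separate in 42.2%, with KI higher in 24.0% and lower in 18.1%. The log2 fold changes of the 6 genes ran from -0.24 in Grm2 to 0.33 in Grm4 with a median of -0.04, beside a median of 0.01 over all genes tested.

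**Figure D2:**
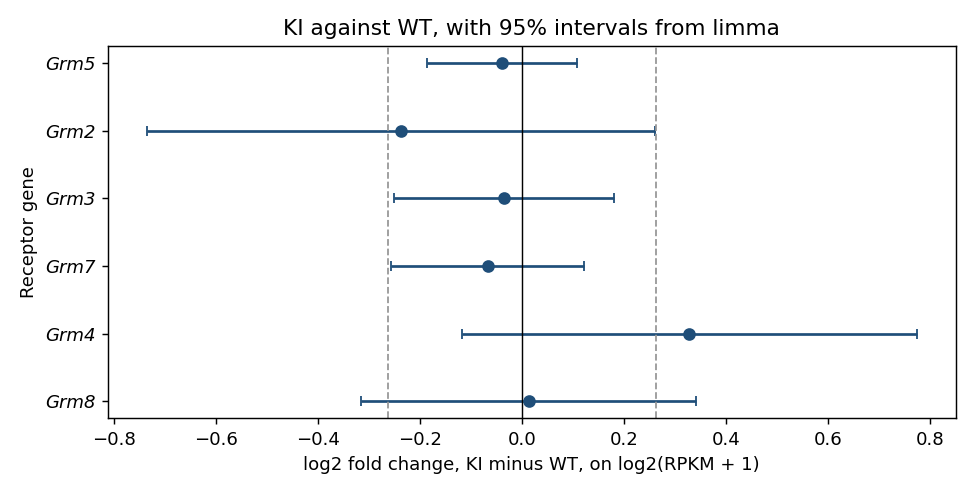
Log2 fold change of each receptor gene, KI minus WT on log2(RPKM + 1), with 95% intervals from limma (2 samples per genotype); dashed lines mark 1.2-fold in either direction. All 6 intervals include 0, and those of Grm5, Grm3 and Grm7 stay inside the dashed lines.

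Grm5 (ENSMUSG00000049583, chromosome 7, 87584168 to 88134907 in GRCm38, plus strand) encodes the principal group I receptor of CA1 pyramidal neurons, where it acts in mGluR-dependent long-term depression. It was at 33.2 and 32.1 RPKM in the WT samples and 30.8 and 32.8 RPKM in the KI samples. The groups overlapped, and KI replicate 1 was the lowest of the 4. WT averaged 32.6 ± 0.79 RPKM (SD, n = 2) and KI averaged 31.8 ± 1.45 RPKM (SD, n = 2). Limma gave a log2 fold change of -0.04 ± 0.06 (SE), a 95% interval from -0.18 to 0.11 and an adjusted p of 0.869. This gene was the best measured of the 6, on 2257 to 3908 reads per sample, and its whole interval lay inside a 1.2-fold change (0.26 on the log2 scale).

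Grm2 (ENSMUSG00000023192, chromosome 9, 106643095 to 106656082, minus strand) encodes a group II autoreceptor that is prominent in dentate granule cells and on their mossy fibre terminals. It was at 19.4 and 22.4 RPKM in WT and at 14.5 and 21.1 RPKM in KI. KI replicate 2 lay between the WT samples, while KI replicate 1 lay below the other samples. WT averaged 20.9 ± 2.17 RPKM (SD, n = 2) and KI averaged 17.8 ± 4.70 RPKM (SD, n = 2), a ratio of 0.853. Its log2 fold change of -0.24 (standard error 0.19, 95% interval -0.74 to 0.26) had an adjusted p of 0.725 from limma, and was 0.02 without KI replicate 1. The low value rested on 692 reads, with an exact 95% Poisson interval of 13.4 to 15.6 RPKM, and the value of KI replicate 2 rested on 1049 reads, with an interval of 19.9 to 22.5 RPKM. The 1.46-fold difference between the KI samples thus exceeded counting error, and 5.29% of all genes tested differed between these samples by at least as much on the log2(RPKM + 1) scale.

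Markers of dentate granule cells, which express Grm2, were read beside it, and 0 of 4 passed the threshold (adjusted p from 0.336 to 0.587 in limma). In bulk tissue, fewer cells of a type and less RNA per cell cannot be told apart. The 4 markers (Prox1, C1ql2, Dsp and Tdo2) summed to 71.2 and 73.0 RPKM in WT and to 47.3 and 56.8 RPKM in KI, and 4 of 4 had both KI values below both WT values, beside 18.1% of all genes tested. Prox1, the transcription factor that specifies granule cells, was at 17.3 and 16.9 RPKM in WT and at 10.2 and 13.1 RPKM in KI (limma log2 fold change -0.52 with adjusted p = 0.405). C1ql2, a secreted synaptic organiser of mossy fibres, was at 41.8 and 44.0 RPKM in WT and at 30.7 and 34.2 RPKM in KI (limma log2 fold change -0.39 with adjusted p = 0.336). Per RPKM of the summed markers, Grm2 stood at 0.272 and 0.307 in WT and at 0.306 and 0.372 in KI. KI replicate 1 had the lowest Grm2 and the lowest marker sum, and its ratio lay between those of the WT samples. KI replicate 2 had a marker sum below both WT samples but Grm2 between the WT values, and its ratio was the highest of the 4 samples. The part of granule cell content in the Grm2 values was not tested.

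**Figure D3:**
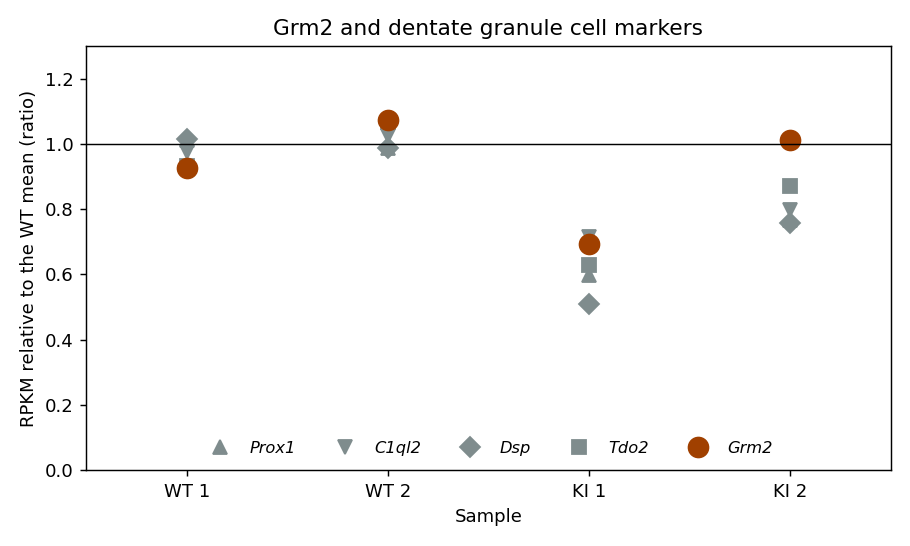
RPKM of Grm2 (large circles) and of 4 dentate granule cell markers (grey symbols) in each sample, each divided by its own WT mean. In KI replicate 1 all 5 genes lie below 1, and in KI replicate 2 the markers lie below 1 while Grm2 lies near 1.

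Grm3 (ENSMUSG00000003974, chromosome 5, 9485541 to 9725170, minus strand) is the second group II gene and is expressed by astrocytes as well as neurons. Its 4 values were close, with 10.1 and 10.8 RPKM in WT and 10.8 and 9.57 RPKM in KI. The groups overlapped in part, with the highest value in WT and the lowest in KI, and the exact 95% Poisson intervals of all 4 samples overlapped across a 1.13-fold range of levels. Limma gave a log2 fold change of -0.03 ± 0.08 (SE), a 95% interval from -0.25 to 0.18 and an adjusted p of 0.927. The 7 astrocyte markers summed to 451.9 and 440.6 RPKM in WT and to 458.6 and 462.2 RPKM in KI, a 1.03-fold ratio of the means. Of the 7, 4 were separate and higher in KI (57.1%, beside 24.0% of all genes tested) and 1 was separate and lower (14.3%, beside 18.1%). None passed the threshold in limma. The part of astrocyte content in the Grm3 values was not tested.

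Grm7 (ENSMUSG00000056755, chromosome 6, 110645581 to 111567230, plus strand) encodes a low-affinity receptor of the presynaptic active zone, and was the most abundant group III gene. It was at 9.74 and 10.8 RPKM in WT and at 9.84 and 9.61 RPKM in KI. WT replicate 2, the least deeply sequenced sample, was the highest, and the counting intervals of all 4 samples overlapped. Limma gave a log2 fold change of -0.07 ± 0.07 (SE), a 95% interval from -0.26 to 0.12 and an adjusted p of 0.799.

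Grm4 (ENSMUSG00000063239, chromosome 17, 27422387 to 27521403, minus strand), a presynaptic receptor best known from cerebellar parallel fibres, was at 2.42 and 3.13 RPKM in WT and at 4.35 and 3.17 RPKM in KI. The KI samples were both higher than the WT samples, but KI replicate 2 exceeded WT replicate 2 by only 0.0385 RPKM. The reads behind these samples were 252 and 147, with exact 95% Poisson intervals of 2.79 to 3.59 RPKM and 2.65 to 3.68 RPKM that overlapped almost entirely. WT averaged 2.78 ± 0.50 RPKM (SD, n = 2) and KI averaged 3.76 ± 0.84 RPKM (SD, n = 2), a ratio of 1.35. The log2 fold change of 0.33 (standard error 0.17, 95% interval -0.12 to 0.78) had an adjusted p of 0.589 from limma, the smallest of the 6 genes. It was 0.15 without KI replicate 1 and 0.51 without KI replicate 2. The same KI replicate 1 had 60.6 RPKM of the 5 summed choroid plexus markers, against 14.1 to 19.7 RPKM in the other samples. The 4 thalamus markers summed to 16.3 and 15.4 RPKM in WT and to 19.7 and 18.1 RPKM in KI, with Prkcd carrying the higher sum (7.88 and 6.48 RPKM in WT, 12.4 and 9.07 RPKM in KI). Of the other thalamus markers, Tcf7l2 and Lef1 were under 1 RPKM with both KI values below both WT values, beside 18.1% of all genes tested. Ntng1 overlapped between the groups. The 4 neocortex markers summed to 16.4 and 17.8 RPKM in WT and to 22.5 and 21.5 RPKM in KI, with 4 of 4 separate and higher in KI, beside 24.0% of all genes tested. The 6 striatum markers summed to 20.2 and 19.0 RPKM in WT and to 24.4 RPKM in both KI samples. Of the 6, 4 were separate and higher in KI (66.7%) and 1 was separate and lower (16.7%). Over all genes tested these shares were 24.0% and 18.1%. None of these markers that were tested passed the threshold in limma, and Tcf7l2, Folr1 and Kcnj13 were too low to be tested. The part of these tissues in the Grm4 values was not tested.

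Grm8 (ENSMUSG00000024211, chromosome 6, 27275119 to 28135178, minus strand), a high-affinity presynaptic receptor, was the lowest of the 6. It was at 1.15 and 1.08 RPKM in WT and at 1.00 and 1.28 RPKM in KI, so that the WT values lay between the KI values. Its values rested on 75 to 150 reads per sample. Limma gave a log2 fold change of 0.01 ± 0.12 (SE), a 95% interval from -0.32 to 0.34 and an adjusted p of 0.985, and a 1.2-fold change in either direction lay within this interval.

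Grm6, the receptor of retinal ON bipolar cells, was not listed in any sample.

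Summed by receptor group, the mRNA of Grm5 alone made up 41.8% ± 2.66 of the RPKM of the 6 genes in WT and 42.7% ± 0.64 in KI (SD, n = 2 each). The group II genes made up 40.1% ± 1.87 in WT and 37.5% ± 2.92 in KI, and the group III genes 18.1% ± 0.79 and 19.7% ± 2.27. Group II summed to 29.4 and 33.2 RPKM in WT and to 25.3 and 30.7 RPKM in KI. Group III summed to 13.3 and 14.97 RPKM in WT and to 15.2 and 14.1 RPKM in KI. The genotypes overlapped in each group sum and in the total, and the exact permutation p was 0.667 for each (two-sided, 2 against 2 samples). KI replicate 1 had the lowest total, 71.2 RPKM, and the largest group III share, 21.3%.

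**Figure D4:**
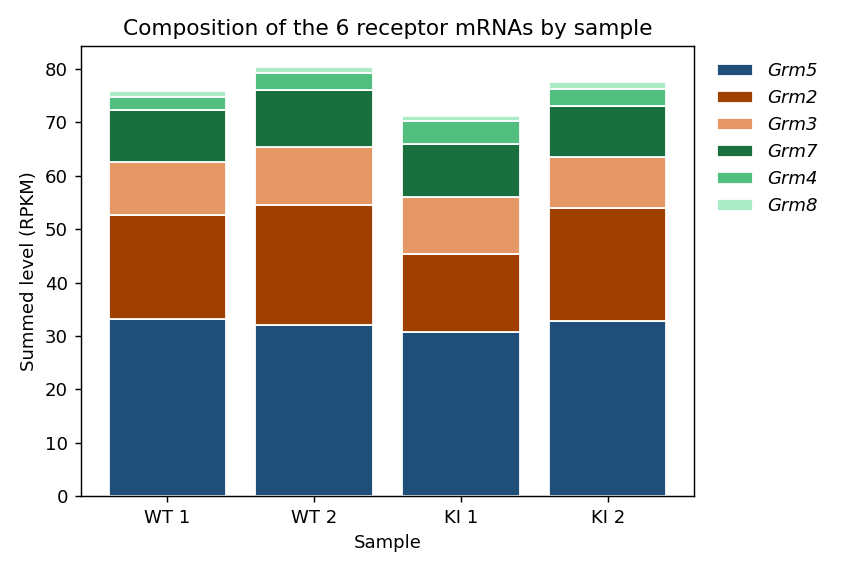
Stacked RPKM of the 6 receptor genes in each sample, from Grm5 at the bottom to Grm8 at the top. The totals run from 71.2 RPKM in KI replicate 1 to 80.3 RPKM in WT replicate 2, and the Grm2 segment of KI replicate 1 is the thinnest.

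Genes whose values across the 4 samples ran most like those of each receptor were taken by the Euclidean distance of log2(RPKM + 1) centred on each gene's mean. With 4 samples such likeness is a description only. For Grm2 the closest were Gm13204 and Spin2c, at distances of 0.04, and Itpka, at 0.05; Itpka encodes a neuronal kinase of inositol trisphosphate, and was at 94.3 and 103.9 RPKM in WT and at 70.3 and 101.8 RPKM in KI. Only 13 genes lay within 0.1 of Grm2. For Grm4, 28 genes lay within 0.1, and the closest were Gm11895, Coro6 and Gm15503; Coro6, a coronin of the actin cytoskeleton, was at 11.6 and 13.9 RPKM in WT and at 18.2 and 14.4 RPKM in KI. The other receptors were nearly flat, and 2969 genes lay within 0.1 of Grm5, 1226 of Grm3, 1845 of Grm7 and 1403 of Grm8. Their closest genes were H13, Ptbp2 and Ftx for Grm5, Vta1, Scara3 and Lair1 for Grm3, Rffl, Rplp0 and Il17rc for Grm7, and Relch, Tex261 and Ccdc50-ps for Grm8.

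The partners that carry the receptors' signals were examined as 6 lists of 82 genes, of which 81 were above the expression filter. None of the 81 passed an adjusted p under 0.1 in limma. Without adjustment, 7 had a limma p under 0.05 with a higher level in KI and 3 with a lower level, where 6.3% and 3.33% of all genes tested did. The KI samples were both higher than the WT samples in 23 of the 81 genes (28.4%) and both lower in 22 (27.2%), beside 24.0% and 18.1% of all genes tested. The median log2 fold change of the 81 genes was 0.01, and their values ran from -0.26 to 0.30.

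**Figure D5:**
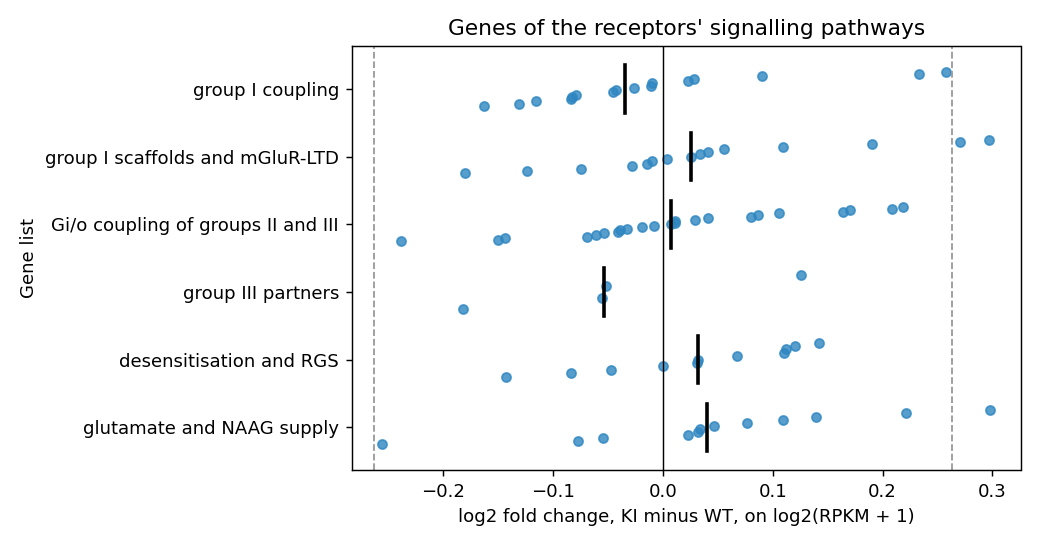
Log2 fold change, KI minus WT on log2(RPKM + 1), of each tested gene of the 6 signalling lists (points), with the median of each list (black bars) and 1.2-fold marked by dashed lines. The medians lie between -0.05 and 0.04.

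Group I coupling, from Gq to phospholipase C, the IP3 receptors and endocannabinoid synthesis, comprised 16 genes with a median log2 fold change of -0.03. The KI samples were both lower in 6 of them (37.5%, beside 18.1% of all genes tested) and both higher in 2 (12.5%, beside 24.0%). Among the 6 lower genes, Gna11 was nearly tied, at 30.3124 and 30.5794 RPKM in WT and at 30.3123 and 30.1065 RPKM in KI. Dagla, which makes the endocannabinoid 2-arachidonoylglycerol, was at 43.1 and 44.1 RPKM in WT and at 39.4 and 38.2 RPKM in KI (limma log2 fold change -0.16 with adjusted p = 0.467). Itpr1, the main neuronal IP3 receptor, was at 54.1 and 51.8 RPKM in WT and at 49.7 and 47.9 RPKM in KI (limma log2 fold change -0.12 with adjusted p = 0.545). These genes had the smallest p of their list.

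The scaffolds and effectors of mGluR-dependent long-term depression comprised 15 genes with a median log2 fold change of 0.03. The Homer and Shank scaffolds, which tie group I receptors to the postsynaptic density, are in this list. Arc, an activity-induced regulator of AMPA receptor endocytosis, was at 61.7 and 52.3 RPKM in WT and at 70.1 and 69.8 RPKM in KI (limma log2 fold change 0.30 with adjusted p = 0.476). Ptpn5, the phosphatase STEP, was at 26.9 and 27.2 RPKM in WT and at 32.1 and 29.9 RPKM in KI (limma log2 fold change 0.19 with adjusted p = 0.476). In both genes the KI values lay above the WT values. Among the 15 genes of this list, the KI samples were both higher in 4 and both lower in 3, and the groups overlapped in 8. Over all genes tested, the KI samples were both higher in 24.0% and both lower in 18.1%.

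The Gi/o pathway of groups II and III comprised 23 genes for G protein subunits, adenylyl cyclases, GIRK channels and presynaptic calcium channels, with a median log2 fold change of 0.01. The KI samples were both higher in 6 of them (26.1%) and both lower in 5 (21.7%), shares close to the 24.0% and 18.1% of all genes tested. Adcy5 was at 19.3 and 18.8 RPKM in WT and at 23.2 and 21.2 RPKM in KI (limma log2 fold change 0.21 with adjusted p = 0.483). Adcy3 was at 10.3 and 10.1 RPKM in WT and at 11.6 and 11.5 RPKM in KI (limma log2 fold change 0.17 with adjusted p = 0.490). Both encode adenylyl cyclases. Of the 4 partners of group III receptors, Grip1, a PDZ scaffold, was at 4.01 and 3.92 RPKM in WT and at 3.47 and 3.28 RPKM in KI (limma log2 fold change -0.18 with adjusted p = 0.552). Elfn2, a transsynaptic ligand of group III receptors, was at 36.5 RPKM in both WT samples and at 35.0 and 35.2 RPKM in KI (limma log2 fold change -0.06 with adjusted p = 0.724). The KI samples were both lower in 3 of these 4 partners (75.0%, beside 18.1% of all genes tested) and both higher in 0.

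Among 11 genes of receptor desensitisation and G protein switch-off, the KI samples were both higher in 6 (54.5%, beside 24.0% of all genes tested) and both lower in 3 (27.3%, beside 18.1%). Of the higher genes, Arrb1 and Grk2 were nearly tied. The nearest values of Arrb1 were 25.595 RPKM in WT and 25.605 RPKM in KI, and those of Grk2 were 44.03 and 44.19 RPKM. Of the lower genes, Rgs8 was nearly tied, with nearest values of 16.38 RPKM in WT and 16.37 RPKM in KI. Rgs14, a regulator that is enriched in CA2, was at 42.1 and 42.5 RPKM in WT and at 46.5 and 45.6 RPKM in KI (limma log2 fold change 0.12 with adjusted p = 0.511). Grk6, a receptor kinase, was at 19.0 and 20.3 RPKM in WT and at 21.5 and 22.1 RPKM in KI (limma log2 fold change 0.14 with adjusted p = 0.522). The last list held 13 genes that supply or clear glutamate and N-acetylaspartylglutamate, a peptide that acts on the group II receptor of Grm3, and 12 of them were tested. Glul, the astrocytic glutamine synthetase, was at 371.1 and 366.6 RPKM in WT and at 441.8 and 418.9 RPKM in KI (limma log2 fold change 0.22 ± 0.05 (SE) with adjusted p = 0.408). Folh1, which cleaves that peptide, was at 1.84 and 1.95 RPKM in WT and at 2.42 and 2.70 RPKM in KI (limma log2 fold change 0.30 with adjusted p = 0.490). In both genes the groups did not overlap. Among the 12 tested genes of this list, the KI samples were both higher in 5 (41.7%) and both lower in 2 (16.7%). These shares stood beside 24.0% and 18.1% of all genes tested.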

How the data were processed

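Poly(A) RNA of hippocampus from 2 WT and 2 Lsd1 KI samples was sequenced in pairs. The authors aligned the reads to mm10 with GSNAP, kept unique and proper pairs, and deposited RPKM values per gene of Ensembl release 74, in 1 file per sample without pooling. The counter is not given in the sources used here. Genes without reads are not listed and were given 0. The count test of the study (edgeR) could not be used on RPKM, so limma 3.58.1 (R 4.3.3) with a mean-variance trend was run on log2(RPKM + 1) for the 18436 genes that reached 0.5 RPKM in 2 or more samples, a filter which all 6 receptor genes passed. Fold changes on this scale understate those of low genes.

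Depth came from the whole-read steps of RPKM times the exon length of GENCODE M21 (GRCm38, the assembly of mm10). For Grm2, Grm3, Grm4, Grm5 and Grm8, reads were computed with the smallest length that made all 4 values whole within 0.01 reads. They were tested in no model, and their Poisson intervals cover counting error only. The code was tested on simulated data, where recovery of changed genes was required only in groups larger than those used here. Named genes were the receptors, Kdm1a, the 2 genes of each list with the smallest p, and the 3 genes most like each receptor. Markers were named too, and Gna11, Arrb1, Grk2 and Rgs8 for near ties. The members and lists were chosen with earlier results of these data known, and some listed genes also stand in the study's own tables of changed genes. The 11 alternative fits and a 1.5-fold threshold are described at the end. Other steps ran in Python 3.11.15 (scipy 1.17.1, numpy 2.4.6, pandas 2.3.3).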

Additional observations from a re-analysis of the deposited data

How the results depend on the processing

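The count of receptor genes past the threshold was 0 in the alternative fits on all 4 samples and at 1.5-fold, and so was that of each signalling list. Over all genes, 20 passed without the mean-variance trend (17 up, 3 down) and 1 passed with at least 10 reads in every sample, none of them a receptor gene. In the rest of these fits, and at 1.5-fold, no gene of any kind passed. Their counts of 0 therefore do not set the receptor genes apart from other genes. The count of receptor genes whose groups did not overlap, 1 in the data as deposited, was 2 with median-of-ratios scaling, 0 with quantile normalization, and from 2 to 4 with 1 sample left out, where fewer values have to be separated. With 1 sample left out, the log2 fold change ran from 0.1486 to 0.5093 in Grm4 and from -0.1324 to -0.0016 in Grm7, which kept their signs in all alternatives, from -0.4948 to 0.0199 in Grm2 (positive without KI replicate 1), from -0.1113 to 0.0419 in Grm3 (positive without KI replicate 2, and 0.0121 without WT replicate 2), from -0.0829 to 0.0072 in Grm5 (positive without KI replicate 1), and from -0.0802 to 0.107 in Grm8 (negative without KI replicate 2, and -0.0094 without WT replicate 2). Grm8 was also negative with quantile normalization (-0.0405). The log2 ratio of the summed level ran from -0.0857 to 0.0072 for group I (positive without KI replicate 1), from -0.3104 to -0.0281 for group II, and from -0.0334 to 0.136 for group III (negative without WT replicate 1, and -0.0082 without KI replicate 1). The cause of these changes was not tested. In a fit with a replicate block, Grm2 had a log2 fold change of -0.24 (adjusted p = 0.627 from limma), and 0 receptor genes passed. Deviations of samples sharing a number correlated at -0.025 across genes, and no label pairs them. Depth limits Grm8 and Grm4 most, with 75 and 147 reads in WT replicate 2.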
